A study of Mus musculus with 16 samples.

Results

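The 10 genes described here act in the absorption of dietary fat and in the making of chylomicrons: Fabp1, Fabp2, Dgat1, Dgat2, Mttp, Apob, Apoa1, Apoa4, Apoc2 and Apoc3. They were chosen by name from the 52636 genes listed in the crypt and KO CAG organoid tables and the 54532 genes of the KO IEC organoid table, and each had 1 row in every table. RNA-seq of mouse small intestine covered 16 libraries in 3 experiments, each comparing a deletion of Cul4b with WT. Cul4b encodes the scaffold of a ubiquitin ligase and lies on the X chromosome, and the mice were males of the C57BL/6 strain.

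In the first experiment, 4 libraries of isolated crypts from WT mice with the floxed allele alone (Cul4b fn/Y) were set against 4 from littermates that also carried pVillin-Cre (KO IEC), in which the Villin promoter drives Cre throughout the gut epithelium. The second compared organoids, epithelial cultures grown from crypts, of the same genotypes, with 2 WT and 2 KO IEC libraries. The third compared 2 WT with 2 KO CAG organoid libraries, in which the tamoxifen-inducible Cre of CAG-CreERT2 removed the allele in culture, and 4-OHT at 10 µM is the dose given in the methods for this induction. For most experiments the mice were 8 to 16 weeks old. Whether the WT organoids of the third experiment carried CAG-CreERT2 or received 4-OHT, which organoid medium was used and the segment of small intestine are not given in the sources used here. The methods call the 2 to 4 libraries of a group biological replicates, without saying which mouse each organoid library came from.

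Enterocytes take up fatty acids and monoglycerides, bind them with fatty acid binding proteins in the cytosol and rebuild triglyceride on the endoplasmic reticulum. The microsomal triglyceride transfer protein loads that triglyceride onto apolipoprotein B, and the particle leaves the cell as a chylomicron that also carries smaller apolipoproteins. These genes are strongest in the absorptive enterocytes of the villus and weak in the stem cells and progenitors of the crypt base.

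Libraries held 7348191 to 16881395 counts, and 3 counts, taken as the floor, equal 0.178 to 0.408 CPM (read counts relative to the library total), a limit that covers counting error only. Cul4b lay at 31.6 to 83.1 CPM in the 8 WT libraries and at 0.846 to 5.18 CPM in the 8 KO libraries, and was called lower in each experiment by edgeR (adjusted p = 0.000169 in crypts, 0.0311 in the KO IEC and 1.93e-06 in the KO CAG organoids). The crypt libraries carried the stem cell marker Lgr5 at 13.1 to 27.5 CPM and the Paneth cell gene Lyz1 at 823 to 7767 CPM, together with the enterocyte gene Sis, sucrase-isomaltase, at 370 to 3441 CPM. Some libraries stood apart. The mitochondrial ribosomal RNAs mt-Rnr1 and mt-Rnr2 together reached 2840 and 2873 CPM in crypt WT replicates 2 and 3, 834 CPM in WT replicate 4, with 1078 CPM for KO IEC replicate 4, against 18.9 to 25.2 CPM in the other 4. Among the organoids, the stem cell gene Olfm4 was at 13.7 CPM in KO IEC replicate 2 and at 1018 to 2816 CPM in the other 3 libraries of that experiment.

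In the crypts, all 9 fat absorption genes that passed the low-count filter had a higher mean in KO IEC than in WT, by 1.34-fold for Dgat1 to 4.03-fold for Apoa4. Apob, Mttp and Dgat2 rose at an adjusted p under 0.05 (edgeR), 3 of 9 where 4.30% of the 13427 genes tested were called higher. The 4 WT libraries lay wholly below the 4 KO IEC libraries for Apob, Dgat2, Apoa1 and Apoa4, 4 of 9 where 8.70% of all tested genes did so. The median log2 fold change was 1.38 over these 9 genes and -0.01 over all tested genes. Apoc2 was not tested.

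The fatty acid binding proteins come first in the pathway. Fabp1, the liver-type carrier that is also abundant in the small intestine, was at 372, 195, 88.7 and 932 CPM in WT replicates 1 to 4 and at 628, 972, 1559 and 1539 CPM in KO IEC. WT replicate 4 overlapped the KO IEC libraries and the other 3 lay below them. The log2 fold change was 1.56 ± 0.63 (SE, n = 4 against 4; adjusted p = 0.125, edgeR), which did not pass. Fabp2, the intestinal carrier, was at 942, 527, 462 and 1920 CPM in WT and at 1302, 1692, 1764 and 2962 CPM in KO IEC. Again WT replicate 4 alone reached into the KO IEC range, and the log2 fold change of 1.00 ± 0.45 did not pass (adjusted p = 0.158, edgeR).

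Dgat1 and Dgat2 encode unrelated enzymes that carry out the same last step of triglyceride synthesis. Dgat2 was at 60.7, 30.9, 28.9 and 62.8 CPM in WT and at 98.9, 129, 204 and 110 CPM in KO IEC. The groups did not overlap, and Dgat2 rose by 1.56 ± 0.32 on the log2 scale (adjusted p = 0.0406, edgeR). Dgat1 was at 580, 425, 349 and 528 CPM in WT and at 464, 630, 709 and 710 CPM in KO IEC. Its groups overlapped, and the log2 fold change was 0.42 ± 0.19 (adjusted p = 0.169, edgeR).

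Mttp, the transfer protein, was at 739, 662, 458 and 1235 CPM in WT and at 1134, 1940, 2557 and 1811 CPM in KO IEC. WT replicate 4 exceeded KO IEC replicate 1, and Mttp rose by 1.27 ± 0.32 (log2, adjusted p = 0.0499, edgeR), at the edge of the threshold. With DESeq2 size factors or library size scaling in place of TMM, its adjusted p was 0.0510 and 0.0512, and Mttp was not called. Its partner Apob, the structural protein of the chylomicron, was at 643, 561, 415 and 1313 CPM in WT and at 1550, 2816, 4251 and 2388 CPM in KO IEC. No library overlapped, and Apob rose by 1.91 ± 0.40 (log2, adjusted p = 0.0413, edgeR), or 3.75-fold.

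The smaller apolipoproteins Apoa1 and Apoa4 are made by enterocytes and travel on the chylomicron surface. Apoa4 was at 350, 177, 94.4 and 595 CPM in WT and at 639, 831, 1811 and 1619 CPM in KO IEC. The groups did not overlap, but the log2 fold change of 2.01 ± 0.56, the largest of the 9, missed the threshold (adjusted p = 0.0565, edgeR). Apoa1 was at 1837, 708, 600 and 1989 CPM in WT and at 2128, 2871, 4124 and 4231 CPM in KO IEC, again without overlap (log2 fold change 1.38 ± 0.42, adjusted p = 0.0656, edgeR). For these 2 genes, as for Apob and Dgat2, the exact two-sided permutation test over libraries gave p = 0.0286, the smallest that 4 against 4 allows.

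Apoc3 and Apoc2 act on lipoprotein lipase in opposite ways, Apoc3 as an inhibitor and Apoc2 as its activator. Apoc3 was at 86.8, 46.8, 31.0 and 157 CPM in WT and at 126, 134, 242 and 305 CPM in KO IEC. WT replicate 4 overlapped, and the log2 fold change of 1.33 ± 0.49 did not pass (adjusted p = 0.103, edgeR). Apoc2 had 0, 1, 1 and 2 counts in WT and 1, 2, 11 and 10 counts in KO IEC. It was above the floor of 3 counts in KO IEC replicates 3 and 4 and under it in the other crypt libraries. It did not pass the low-count filter, so no fold is given. In the organoids it had at most 1 count per library in the KO IEC experiment, and 2 and 0 counts in WT against 5 and 4 in KO CAG.

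**Figure D1:**
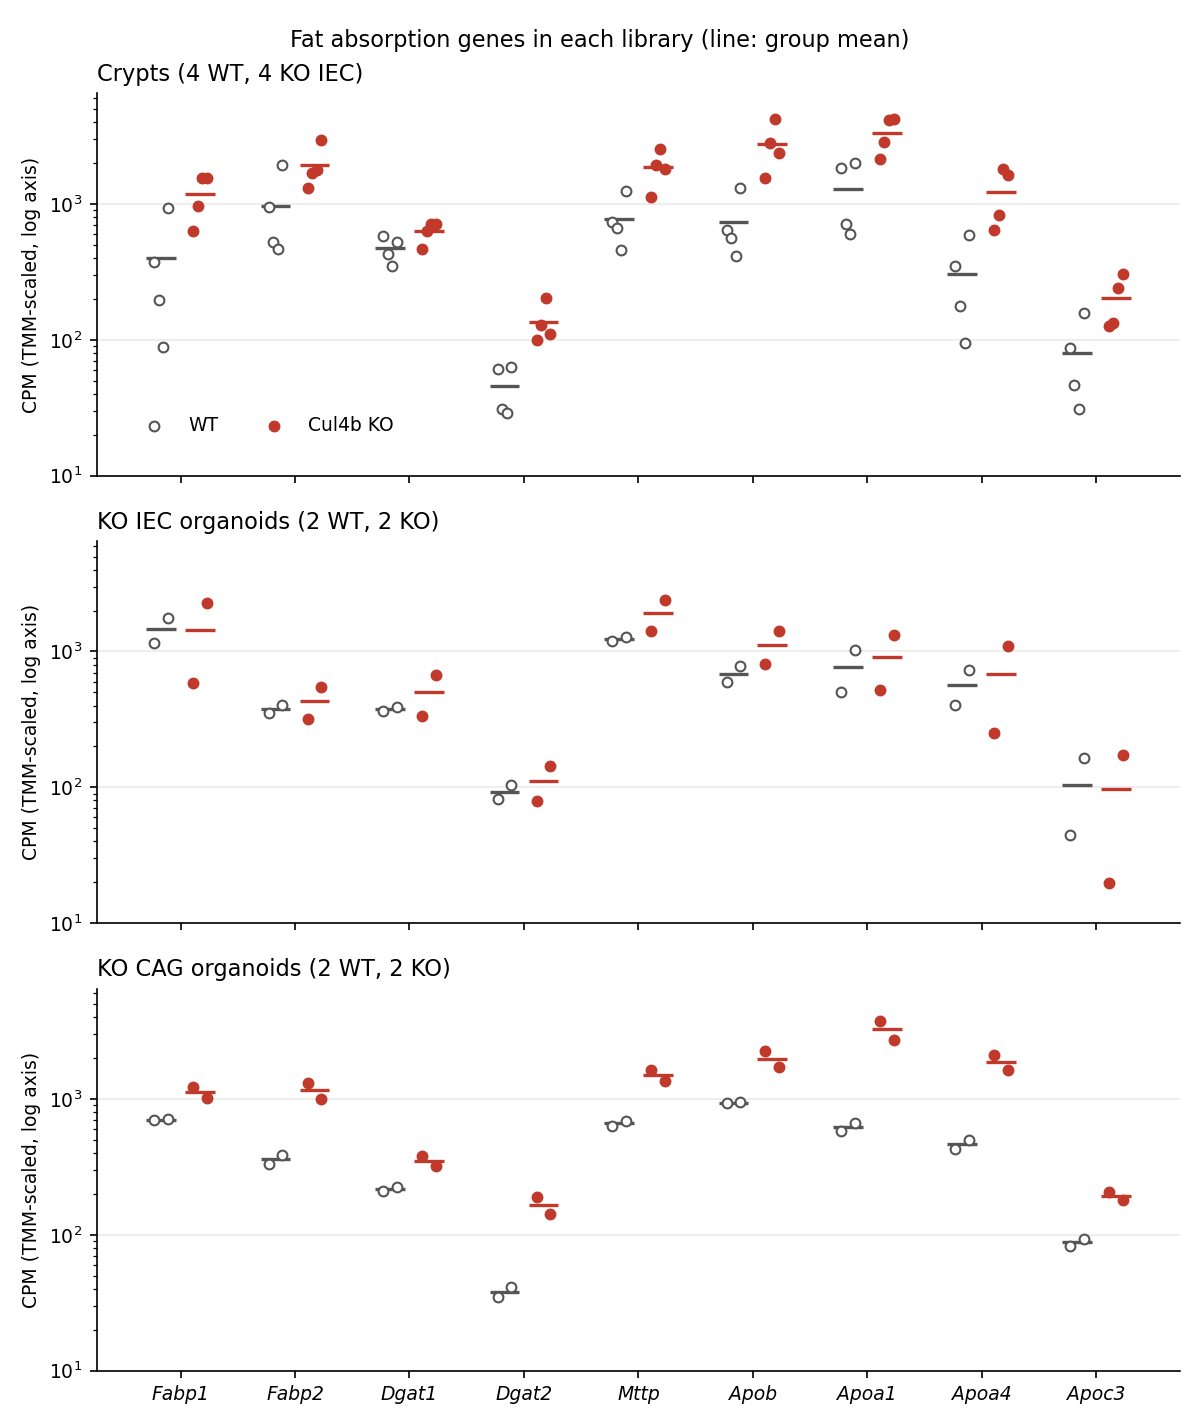
CPM (scaled by the trimmed mean of M-values, log axis) of the 9 fat absorption genes tested, in every library of the 3 experiments, with open circles for WT, filled circles for Cul4b KO and a line at each group mean. In the crypts WT replicate 4 lies above the other WT libraries for 8 of the 9 genes, and in the KO CAG organoids all KO points lie above the WT points.

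The libraries of one genotype moved together across these genes. WT replicate 3 was the lowest WT library for all 9 tested genes and WT replicate 4 the highest for 8 of 9. KO IEC replicate 1 was the lowest KO library for all 9, and replicates 3 and 4 shared the highest place, for 5 and 4 genes. The 10 genes together took 0.576%, 0.346%, 0.266% and 0.876% of all counts in WT replicates 1 to 4 and 0.822%, 1.17%, 1.58% and 1.53% in KO IEC. WT replicates 2 and 3, with the lowest shares, were also the libraries with the most mitochondrial ribosomal RNA.

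The calls in the crypts depended on single libraries. Leaving out WT replicate 1, 2 or 3 or KO IEC replicate 2 or 3 left 0 members called, and leaving out KO IEC replicate 4 left 1. In those fits 0.0145% to 3.75% of all genes were called. Without WT replicate 4, 8 members were called with 13.6% of all genes, and without KO IEC replicate 1, 5 members with 18.0%. Without both WT replicates 2 and 3, a choice made after the values were seen, 0 members were called and 0.00715% of all genes (Apob 1.49, Dgat2 1.13, Mttp 0.91 on the log2 scale, adjusted p = 0.391 for each, edgeR). With the class of mitochondrial ribosomal RNA (under 100, 100 to 2000 or above 2000 CPM) as a covariate, 0 members were called either, and 0.0149% of all genes. Apob was at 1.62, Dgat2 at 1.07 and Mttp at 1.02 on the log2 scale in that fit. Within the low class, 3 KO IEC libraries exceeded the 1 WT library by 0.03 (Dgat1) to 2.04 (Apob) in mean log2 CPM over the 9 genes, and within the middle class 1 KO IEC library exceeded 1 WT library by 0.43 (Dgat1) to 1.44 (Apoa4). All 9 differences were above 0 in both classes. Each class held 1 WT library and these genes moved together by library, so the 9 signs are not separate observations. In the low class Dgat1 was lower in KO IEC replicate 1 (464 CPM) than in WT replicate 1 (580 CPM).

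Markers of absorptive enterocytes that are not among the fat absorption genes listed here moved with these genes. Of 12 such markers, which include Alpi, Sis, Lct and Krt20, all 12 had a log2 fold change above 0 in the crypts, with a median of 1.64. All 12 had an unadjusted p under 0.05 (edgeR), as did 7 of the 9 members and 31.9% of all genes. For 7 of the 12 the WT libraries lay wholly below KO IEC, as for 8.70% of all genes. At an adjusted p under 0.05, 1 was called higher, where 4.30% of all genes were. This was Mgam, maltase-glucoamylase, named after its value was seen (log2 fold change 0.90 ± 0.22, adjusted p = 0.0483, edgeR). Their summed level ranged from 2860 to 9420 CPM in WT and from 9340 to 18000 CPM in KO IEC, with none at 0. Of 5 stem cell markers, 2 were called lower (Lgr5 and Ascl2, the latter named after its value was seen), where 2.66% of all genes were. Paneth cell markers had log2 fold changes below 0 in 5 of 6 (median -0.685), with sums of 8890 to 16400 CPM in WT and 1760 to 16100 CPM in KO IEC. Goblet markers were above 0 in 4 of 6 (median 0.0146) and enteroendocrine markers in 3 of 6 (median 0.0364). In each of these 3 lists edgeR called 0. In bulk RNA, more or fewer cells of a type and more or less RNA per cell cannot be told apart, and the part of cell composition in these values was not tested. The immune markers summed to 19.9 to 98.5 CPM in WT against 38.9 to 276 CPM in KO IEC. The liver markers, whose tissue makes several of the same apolipoproteins, summed to 3.38 to 5.81 CPM over all 8 crypt libraries, with Ahsg at 0 in all WT and Fgb at 0 in all KO IEC libraries. The ileal bile acid binding gene Fabp6 ranged from 0.317 to 92.6 CPM over the crypt libraries. The distal gut markers to which it belongs had log2 fold changes above 0 in 3 of 3 tested (median 0.996, with 0 called by edgeR and 0 at an unadjusted p under 0.05), and summed to 67.1 to 172 CPM in WT and 162 to 310 CPM in KO IEC. Slc10a2, of the same list, was at 0 to 3.06 CPM and was not tested. Gata4, a factor of the proximal small intestine, ranged from 171 to 299.5 CPM. The proximal gut markers to which it belongs had log2 fold changes above 0 in 3 of 4 (median 0.5, with 0 called by edgeR and 0 at an unadjusted p under 0.05). They summed to 272 to 356 CPM in WT and 291 to 835 CPM in KO IEC.

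In the KO IEC organoids, 0 of the 9 tested genes were called by edgeR, where 0.00717% of 13938 genes (1 gene, Cul4b) were called. At an unadjusted p under 0.05, 0 members and 4.66% of all genes passed, and DESeq2's Wald test called 0 members and 0.187% of all genes. Log2 fold changes ran from -0.10 for Apoc3 to 0.70 for Apob, with a median of 0.26 against -0.01 over all tested genes. Only Apob and Mttp had WT libraries wholly below KO IEC, 2 of 9 where 19.4% of all tested genes did so.

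Replicates of one genotype lay as far apart as the genotypes. Replicate 2 exceeded replicate 1 for all 9 genes in both genotypes, by 1.06-fold to 3.66-fold in WT and by 1.69-fold to 8.83-fold in KO IEC. Apoc3 spread most, with 44.7 and 164 CPM in WT against 19.7 and 174 CPM in KO IEC, so that both extremes were KO IEC libraries. Apoa4 was at 401 and 735 CPM in WT and at 252 and 1105 CPM in KO IEC, and Fabp1 at 1159 and 1770 CPM against 585 and 2277 CPM. In each of these 3 genes the KO IEC pair enclosed the WT pair, and the difference had no clear sign.

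For Apob and Mttp the groups did not overlap. Apob was at 595 and 779 CPM in WT and at 813 and 1426 CPM in KO IEC (log2 fold change 0.70 ± 0.33, adjusted p = 0.856, edgeR). Mttp was at 1204 and 1281 CPM in WT and at 1424 and 2409 CPM in KO IEC (0.63 ± 0.29, adjusted p = 0.856, edgeR). Their 95% intervals ran from -0.14 to 1.55 and from -0.13 to 1.38, so a doubling and no change both lie inside them. Apoa1, at 501 and 1026 CPM against 517 and 1316 CPM, had an interval from -1.17 to 1.70.

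Dgat1 was at 362 and 387 CPM in WT against 335 and 670 CPM in KO IEC. For Dgat2 the values were 81.3 and 104 CPM against 79.0 and 144 CPM, and for Fabp2 353 and 402 CPM against 321 and 550 CPM. In these 3 genes too, the KO IEC pair enclosed the WT pair.

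One library decided what could be called. Without KO IEC replicate 1, which held the lower KO value for all 9 genes, Apob (1.05), Mttp (0.95), Dgat1 (0.84) and Dgat2 (0.64) were called higher on the log2 scale, 4 of 9 where 15.8% of all genes were called in either direction, with the lone KO library assumed to vary like WT. Without KO IEC replicate 2, the library with Olfm4 at 13.7 CPM, 0 members were called, and Apoa1 (-0.56), Apoa4 (-1.17), Dgat1 (-0.16), Dgat2 (-0.22) and Fabp2 (-0.23) took the opposite sign. Enterocyte markers followed the same libraries, with summed levels of 9460 and 18700 CPM in WT against 5760 and 22800 CPM in KO IEC. Stem cell markers had log2 fold changes below 0 in 5 of 5 (median -2.15), all without overlap, as for 19.4% of all genes. Paneth cell markers were below 0 in 6 of 6 (median -0.695) and goblet markers above 0 in 6 of 6 (median 1.05). Proximal gut markers were above 0 in 4 of 4 (median 0.823). In each of these lists edgeR called 0. The part of these markers in the result was not tested.

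In the KO CAG organoids, all 9 tested genes rose at an adjusted p under 0.05 (edgeR), where 18.1% of 13598 genes were called higher. For all 9 the 2 WT libraries lay below the 2 KO CAG libraries, as for 35.5% of all tested genes. Log2 fold changes ran from 0.67 to 2.39 with a median of 1.17, against 0.00 over all tested genes. With a fold change of at least 2 required as well, 7 of 9 were called, where 6.36% of all genes were called higher.

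Apoa1 changed most. It was at 582 and 662 CPM in WT and at 3773 and 2731 CPM in KO CAG, a log2 fold change of 2.39 ± 0.15 (SE, n = 2 against 2; adjusted p = 6.69e-06, edgeR) or 5.23-fold. Apoa4 was at 430 and 496 CPM in WT and at 2102 and 1627 CPM in KO CAG (2.01 ± 0.13, adjusted p = 8.85e-06, edgeR). Apoc3, whose gene lies between these, went from 82.2 and 93.6 CPM to 207 and 179 CPM (1.14 ± 0.10, adjusted p = 4.53e-05, edgeR). Its interval, 0.91 to 1.36, did not reach those of Apoa1 (2.05 to 2.72) and Apoa4 (1.71 to 2.31).

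The enzymes of triglyceride synthesis also had unlike fold changes. No test compared the change of one gene with that of another, here or for the apolipoproteins and the fatty acid carriers. Dgat2 went from 34.8 and 41.1 CPM in WT to 190 and 143 CPM in KO CAG (2.13 ± 0.14, adjusted p = 8.85e-06, edgeR), and Dgat1 from 210 and 224 CPM to 379 and 321 CPM (0.69 ± 0.10, adjusted p = 0.000717, edgeR). The fatty acid carriers showed a similar gap. Fabp2 went from 334 and 387 CPM to 1322 and 1000 CPM (1.69 ± 0.14), while Fabp1 went from 699 and 707 CPM to 1232 and 1013 CPM (0.67 ± 0.11, adjusted p = 0.0012, edgeR), the smallest change of the 9.

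The assembly pair rose by similar amounts. Mttp went from 638 and 694 CPM to 1638 and 1355 CPM (1.17 ± 0.11) and Apob from 927 and 947 CPM to 2265 and 1708 CPM (1.08 ± 0.13). KO CAG replicate 1 exceeded replicate 2 for all 9 genes, with replicate 2 at 0.724 to 0.866 of replicate 1, a smaller gap than that between genotypes. The exact permutation test of 2 against 2 libraries cannot go below p = 0.333, so the calls rest on the spread edgeR borrowed across genes. When all 16 libraries shared 1 estimate of the spread, only Dgat2 remained called, and the other 8 had log2 fold changes of 0.67 to 2.38 with adjusted p from 0.0546 to 0.709. In that fit 3.06% of all genes were called for KO CAG against WT. Its SE was 0.62 for Apoa1, 0.80 for Apoa4 and 0.88 for Apoc3. It was 0.44 for Dgat2 and 0.31 for Dgat1, and 0.57 for Fabp2 and 0.83 for Fabp1.

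Enterocyte markers moved here too. Of the 12 enterocyte markers outside the fat absorption lists, 10 were called higher, where 18.1% of all genes were. The median log2 fold change of the 12 was 1.22, and their summed level went from 7410 and 7540 CPM (WT) to 10300 and 12300 CPM in KO CAG. Markers of other lineages rose as well, 5 of 6 goblet, 5 of 6 Paneth and 6 of 6 enteroendocrine markers being called higher. So did distal gut markers, 3 of 3 tested being called higher (Slc10a2, the ileal bile acid transporter, by 1.42 ± 0.38 on the log2 scale), with sums of 13.9 to 17.4 CPM in WT and 44.7 to 50.9 CPM in KO CAG and Fabp6 at 0 in both KO CAG libraries. Epithelial markers were called higher in 4 of 6 cases and the mitochondrial ribosomal RNAs in 2 of 2, at a median of 0.39. Of 5 stem cell markers, 2 were called lower, where 13.4% of all genes were. Lgr5 had a log2 fold change of -1.25, and the median of the 5 was -0.13. The part of these markers in the result was not tested. Liver markers summed to 28.0 to 30.9 CPM in WT against 13.4 to 14.6 CPM in KO CAG, with Fga, Fgb and Ahsg at 0 in every library. Immune markers summed to at most 1.25 CPM.

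**Figure D2:**
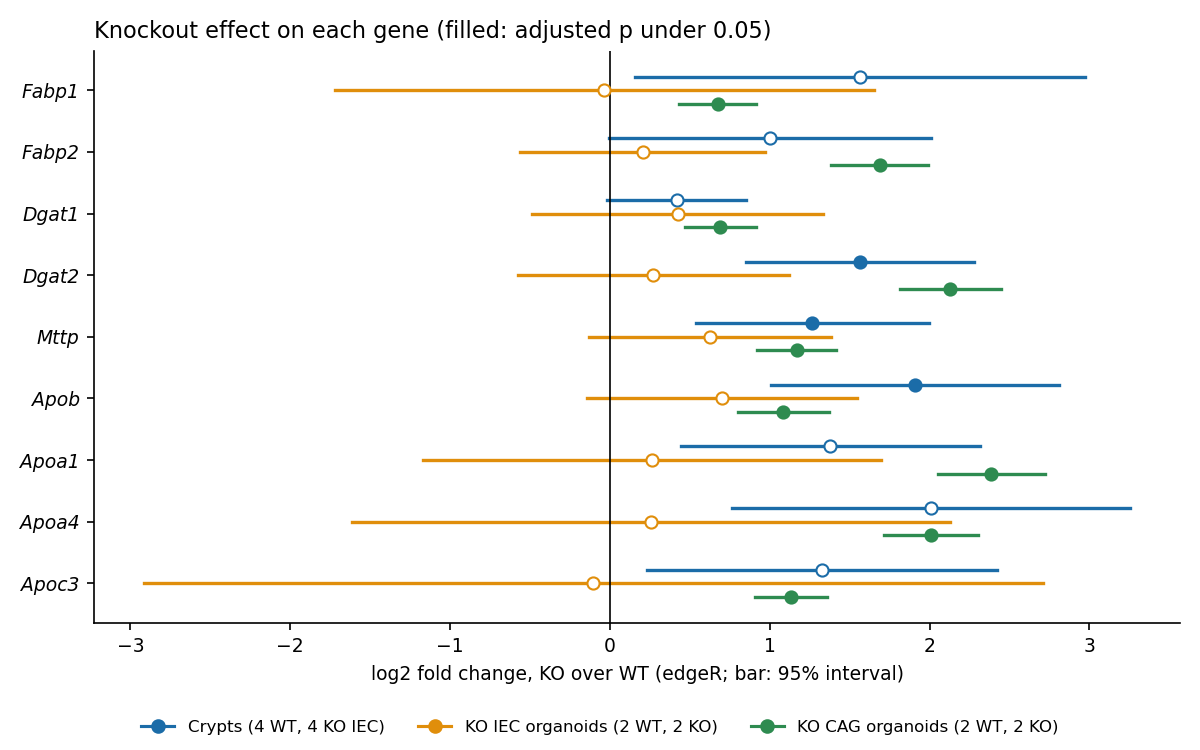
Log2 fold change of KO over WT (edgeR) with its 95% interval for the 9 genes tested in each experiment, filled where the adjusted p is under 0.05. All 9 points are filled in the KO CAG organoids, 3 in the crypts and 0 in the KO IEC organoids, where all 9 intervals reach across 0.

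Whether the effect of the deletion differed between experiments was tested as an interaction in 1 fit of all 16 libraries over 15585 genes. In all 3 pairs of experiments, 0 of 9 members were called by edgeR, where 0.372% (crypts minus KO CAG organoids), 0.00642% (crypts minus KO IEC organoids) and 0.385% (KO CAG minus KO IEC organoids) of all genes were called. Tests of one gene share libraries, and the share of all genes with an unadjusted p under 0.05 was not counted. At that level 3 of the 27 tests passed. These were Dgat2 in KO CAG minus KO IEC organoids (1.83 ± 0.60, adjusted p = 0.269), Apoa1 in the same pair (2.09 ± 0.84, adjusted p = 0.380) and Dgat2 in crypts minus KO IEC organoids (1.28 ± 0.52, adjusted p = 0.665). That a gene was called in one experiment and not in another is therefore not shown to be a difference between them. The experiments have separate WT libraries, and outside this fit each was scaled alone, so levels were not compared across them.

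By group mean per kilobase of the gene length given in the tables, Apoa1 and the fatty acid carriers were the most abundant members in every group and Dgat2 and Apoc2 the least. The ranges of Fabp2 and Apoa4 overlapped in both genotypes of the KO IEC organoid experiment and in the KO CAG libraries. In WT crypts the order by mean CPM per kilobase was Apoa1 (1040 ± 591, SD, n = 4), Fabp2 (997 ± 697), Fabp1 (718 ± 679), Apoa4 (168 ± 122), Dgat1 (154 ± 33.9), Mttp (125 ± 53.1), Apoc3 (79.3 ± 55.3), Apob (52.6 ± 28.5), Dgat2 (14.9 ± 5.97) and Apoc2 (0.103 ± 0.081). The ranges of neighbours in that order overlapped from Apoa1 down to Apob, so only the places of Dgat2 and Apoc2 stood clear of the spread. In WT organoids Fabp1 led, at 2100 and 3200 CPM per kilobase in the KO IEC experiment and at 1260 and 1280 in the KO CAG experiment. There Apoa1 was next, at 471 and 535, and passed Fabp1 in KO CAG (2210 to 3050 against 1830 to 2230), with ranges that overlapped.

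The balance between related genes can be read within a library, where depth cancels. These ratios of CPM per kilobase were chosen after the values were seen and carry no test. In the crypts Dgat1 exceeded Dgat2 by 9.66, 13.9, 12.2 and 8.48 times in WT replicates 1 to 4 and by 4.74, 4.91, 3.50 and 6.52 times in KO IEC. In the KO CAG experiment it exceeded Dgat2 by 6.07 and 5.49 times in WT and by 2.01 and 2.26 times in KO CAG. In both experiments every KO library had a lower ratio than every WT library, while in the KO IEC organoids the values overlapped, at 4.49 and 3.77 against 4.28 and 4.68.

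For the carriers the direction was not shared. Fabp1 over Fabp2 was 3.66 and 3.18 in WT and 1.63 and 1.77 in KO CAG organoids, lower in KO. In the crypts it was 0.335 to 0.847 in WT but 0.842 to 1.54 in KO IEC, where the ranges touched. In the KO IEC organoids it overlapped, at 5.72 and 7.69 in WT against 3.18 and 7.22 in KO IEC. Apoa1 over Apoc3 was 5.81 and 5.80 in WT and 14.9 and 12.5 in KO CAG organoids. In the crypts the same ratio overlapped, at 10.4 to 17.4 in WT and 11.4 to 17.6 in KO IEC. It overlapped in the KO IEC organoids too, at 9.18 and 5.14 against 21.5 and 6.19. Apoa1 over Apoa4 was 1.98 and 1.96 in WT and 2.64 and 2.47 in KO CAG organoids, higher in KO. That ratio was 4.91 to 9.34 in WT crypts and 3.34 to 5.07 in KO IEC crypts, and 1.83 and 2.05 against 3.02 and 1.75 in the KO IEC organoids, overlapping in both.

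**Figure D3:**
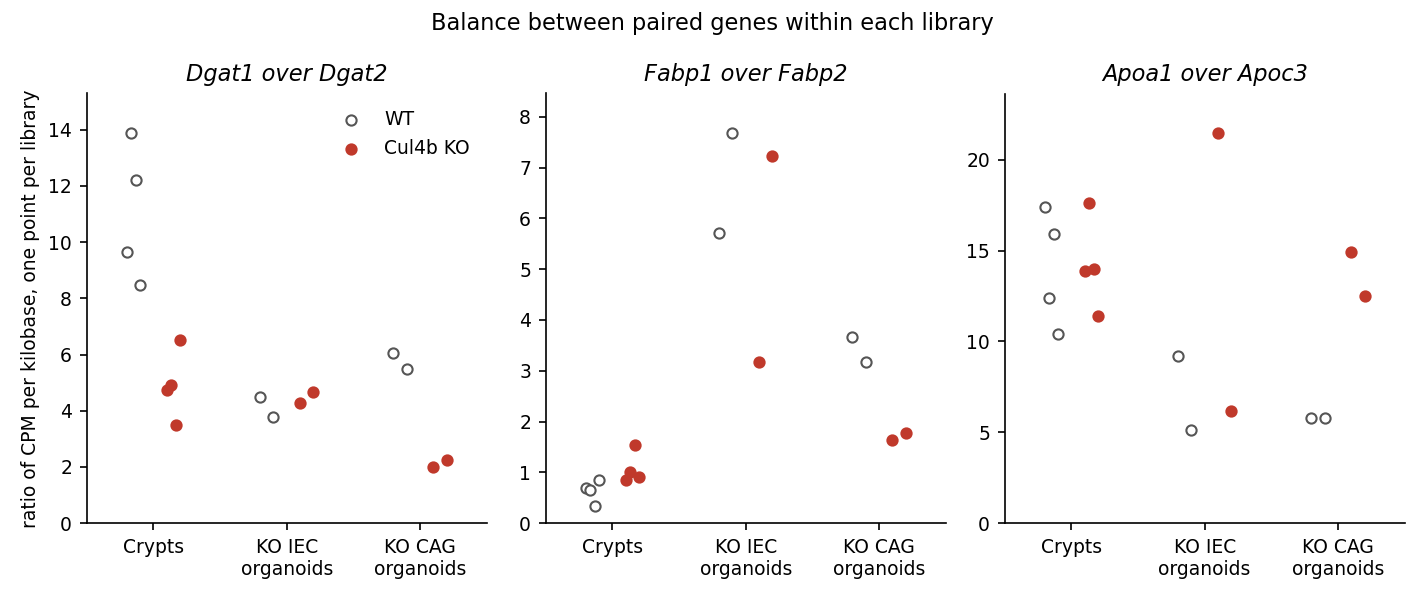
Ratio of CPM per kilobase between 2 related genes within each library (linear axes from 0), with open circles for WT and filled circles for Cul4b KO. The ratio of Dgat1 to Dgat2 is lower in every KO library than in every WT library of the crypts and the KO CAG organoids, and overlaps in the KO IEC organoids.

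Apoa1, Apoc3 and Apoa4 form a cluster on chromosome 9, at 46228580-46230466 (plus strand), 46232933-46235636 (minus) and 46240696-46243459 (plus) in the coordinates of the tables, which equal those of GENCODE M21 on GRCm38 for these genes. Of 14 listed genes within 100 kb of it, 4 that are not members were tested in the crypts. Sik3, a kinase gene, was at 40.8 ± 3.21 CPM (SD, n = 4) in WT against 42.1 ± 6.03 CPM in KO IEC crypts. Zpr1, a zinc finger protein gene, was at 43.4 ± 4.75 and 35.7 ± 4.60 CPM, and Bud13, a splicing gene, at 17.7 ± 1.66 and 15.5 ± 2.15 CPM. None of these 3 was called in any of the 3 experiments, and their log2 fold changes ran from -0.28 to 0.46. The fourth, listed as AC116503.1, runs antisense across the start of Apoa4 and was called higher in crypts (3.28 ± 0.79, adjusted p = 0.0465, edgeR) and in KO CAG organoids (2.26 ± 0.28, adjusted p = 0.000305, edgeR). In the KO IEC organoid table the same gene is named Gm47528 and was not called (0.64 ± 0.59, adjusted p = 0.856, edgeR). Whether strand was used in counting is not given in the sources used here, so its reads and those of Apoa4 may not be separable, and its 431 counts over the 4 KO IEC crypt libraries are uncertain. Mttp overlaps Trmt10a on the other strand, which held 387 counts in all WT and 333 in all KO IEC crypt libraries.

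The sequence just before the transcription start was read from RefSeq (GRCm38.p6), which had an entry for 7 of the 10 genes. In the 200 bases before the RefSeq start, on both strands, CAAAGTNCA, a form of the site bound by HNF4 factors, occurred in Apoa4 (182 bases before the start) and in Fabp2 (137 bases before it, on the reverse strand), 2 of 7, and in 0.959% of 32851 promoters. GTTAAT, a half-site of HNF1, occurred in Fabp1 and Apoc2 (5.06% of all promoters). TATAAA occurred in Fabp1, 30 bases before the start, and in Apob (9.96% of all). AGATAA, read by GATA factors (7.80% of all), and the direct repeat of AGGTCA with 1 base between (0.0335% of all) occurred in none of the 7. TTTATNA, a CDX site (9.97% of all), occurred in Apoc2 and Fabp1, where it overlaps TATAAA. These motifs were chosen with results for these genes known, and a match is a description of letters only. The genes shown are the related Fabp2 and Fabp1, whose intervals in the KO CAG organoids did not overlap, and the neighbours Apoa4 and Apoa1, whose intervals did. Each run is given 5′ to 3′ and stops before the earlier of the RefSeq and table starts, with the HNF4-type and HNF1-type letters in capitals.
Apoa4, chr9:46240594-46240695, plus strand: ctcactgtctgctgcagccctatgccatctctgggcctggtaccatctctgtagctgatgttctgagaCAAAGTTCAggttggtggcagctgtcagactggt
Apoa1, chr9:46228380-46228579, plus strand: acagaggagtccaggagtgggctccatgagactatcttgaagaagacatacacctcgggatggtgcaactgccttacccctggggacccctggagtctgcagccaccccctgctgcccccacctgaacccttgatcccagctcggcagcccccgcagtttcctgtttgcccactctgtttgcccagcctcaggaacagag
Fabp2, chr3:122894872-122895071, plus strand: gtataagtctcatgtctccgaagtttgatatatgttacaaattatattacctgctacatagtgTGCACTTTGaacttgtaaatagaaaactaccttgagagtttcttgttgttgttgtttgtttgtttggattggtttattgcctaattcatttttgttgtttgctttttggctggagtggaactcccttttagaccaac
Fabp1, chr6:71199629-71199826, plus strand: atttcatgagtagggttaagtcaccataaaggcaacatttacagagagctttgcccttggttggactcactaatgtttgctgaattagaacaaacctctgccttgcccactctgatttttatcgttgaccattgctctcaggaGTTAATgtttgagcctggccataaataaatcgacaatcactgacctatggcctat

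Both HNF4 factor genes were measured. Hnf4a, the more abundant, was at 1133 ± 84.3 CPM (SD, n = 4) in the crypts of WT mice against 1118 ± 105 CPM for KO IEC and was not called in any experiment, with a log2 fold change of -0.02 in crypts (adjusted p = 0.930), 0.28 in KO IEC organoids (adjusted p = 0.856) and -0.23 for the KO CAG organoids (adjusted p = 0.0640, edgeR). It was named after its values were seen. Hnf4g rose in crypts, from 173 ± 39.0 to 326 ± 74.3 CPM (SD, n = 4; log2 fold change 0.91 ± 0.20, adjusted p = 0.0438, edgeR), and in KO CAG organoids (0.53 ± 0.11, adjusted p = 0.00444, edgeR). In the KO IEC organoids it was at 194 and 201 CPM in WT against 232 and 408 CPM in KO IEC and was not called.

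The rest of the pathway was covered by a list of 66 further genes of fat absorption, 61 of which were tested in each experiment. In the crypts 11 were called higher and 1 lower, where 4.30% and 2.66% of all genes were, and the median log2 fold change was 0.54. In the KO IEC organoids 0 were called by edgeR and 1 by DESeq2 (0.187% of all genes), 4 had an unadjusted p under 0.05 (4.66% of all genes did), and the median was 0.23. In the KO CAG organoids 30 were called higher and 5 lower, where 18.1% and 13.4% of all genes were, with a median of 0.365.

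By role, the 11 genes of uptake and sterol transport had a median of 0.93 in the crypts, where edgeR called 0 and 6 had an unadjusted p under 0.05 (31.9% of all genes did), and a median of 0.72 in KO CAG organoids with 8 called higher. Slc27a4, a fatty acid transporter of the enterocyte, was at 268 ± 118 CPM in WT against 610 ± 132 CPM in KO IEC crypts, without overlap (adjusted p = 0.0505, edgeR), and rose by 1.39 ± 0.14 in KO CAG organoids. Abca1, which exports cholesterol to apolipoprotein A-I, rose by 1.47 ± 0.25 in KO CAG organoids, and Abcg5, part of the sterol exporter of the brush border, by 1.13 ± 0.10.

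Of 17 tested genes of activation and re-esterification, 5 were called higher in the crypts. These were Acsl5 (1.13 ± 0.28), an acyl-CoA synthetase, Gpat3 (1.00 ± 0.22) and Agpat2 (0.74 ± 0.19) and Agpat3 (0.59 ± 0.12), acyltransferases of glycerolipid synthesis, and Lpin2 (0.74 ± 0.17), a phosphatidate phosphatase. Acat2, a cytosolic thiolase of cholesterol synthesis and not a re-esterifying enzyme, was the 1 gene of the whole list called lower in the crypts. It was at 65.7 ± 5.84 CPM in WT against 48.6 ± 1.42 CPM in KO IEC (SD, n = 4, adjusted p = 0.0406, edgeR). In KO CAG organoids 8 were called higher, led by Mogat2, the monoacylglycerol acyltransferase of the gut (2.83-fold), Gpat3 (log2 fold change 1.32 ± 0.16) and Soat2 (1.12 ± 0.13), the cholesterol-esterifying enzyme of enterocytes. The 5 called lower in KO CAG were Acat2 (-0.67) and, named after their values were seen, Gpam (-0.55), Lpin1 (-0.54), Acsl3 (-0.50) and Soat1 (-0.32). Gpam, Lpin1 and Soat1 have relatives with the same activity among the genes called higher, Gpat3, Lpin2 and Soat2.

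Among 10 genes of lipid droplets and lipolysis, Lipa, the lysosomal acid lipase, rose most in the crypts, from 10.8 ± 5.39 to 46.1 ± 26.3 CPM (2.09 ± 0.45, adjusted p = 0.0424, edgeR) and by 1.62 ± 0.15 in KO CAG organoids. Plin3, a droplet coat protein, rose by 0.66 ± 0.17 in crypts and 0.62 ± 0.11 in KO CAG organoids. Cidec, a droplet fusion protein, rose by 1.71 ± 0.19 in KO CAG organoids and Abhd5, an activator of triglyceride lipase, by 0.83 ± 0.19. In the crypts Cidec was at 10.1 ± 6.06 CPM in WT against 29.6 ± 14.2 CPM in KO IEC and was not called (adjusted p = 0.0635, edgeR).

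Of 12 tested genes of chylomicron assembly and export, 2 were called higher in crypts. A1cf, a cofactor in the editing of Apob mRNA, rose by 1.04 ± 0.19 there and had a log2 fold change of -0.04 (adjusted p = 0.802, edgeR) in KO CAG organoids. Tmem41b, a lipid scramblase, rose by 0.36 ± 0.09. Apobec1, the editing enzyme itself, rose by 1.45 ± 0.21 in KO CAG organoids, ahead of Tm6sf2 (0.86 ± 0.14) and Pla2g12b (0.80 ± 0.17), both needed for lipidation of apolipoprotein B particles. Editing itself was not measured, since the tables hold counts per gene.

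Of 11 regulators, Hnf4g and Ppargc1a, a coactivator, were called higher in crypts, the latter by 1.15 ± 0.30 (adjusted p = 0.0499, edgeR), and Creb3l3 and Hnf4g in KO CAG organoids, 2 of 11 where 18.1% of all genes were called higher. Creb3l3, a membrane-bound transcription factor of the liver and gut that acts on apolipoprotein genes, rose by 1.51 ± 0.13 there (adjusted p = 4.06e-05, edgeR). In the crypts it was at 87.0 ± 43.9 CPM in WT against 219 ± 75.5 CPM in KO IEC (1.33 ± 0.38, adjusted p = 0.0606, edgeR). The calls for this list in the crypts rested on the same libraries as those of the members, with 0 called without WT replicate 1, 2 or 3 or KO IEC replicate 2 or 3, 4 without KO IEC replicate 4, 24 without WT replicate 4 and 27 without KO IEC replicate 1. In the KO IEC organoids 17 were called without KO IEC replicate 1.

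**Figure D4:**
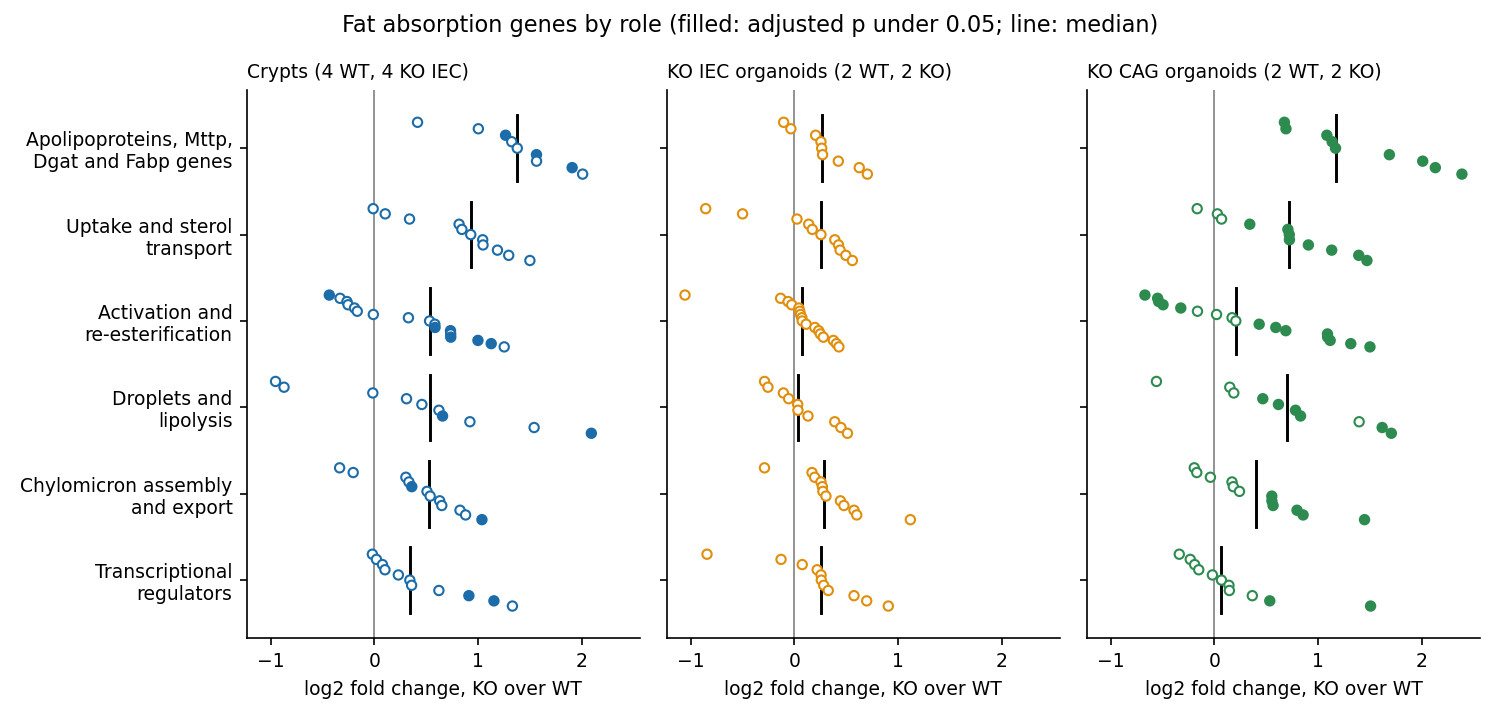
Log2 fold change of KO over WT for each tested gene (1 point per gene, filled where the adjusted p is under 0.05, edgeR) by role, with a line at the median of each row, in the 3 experiments. In crypts and KO CAG organoids the top row, the 9 members, has the highest median of the rows shown (1.38 and 1.17). The members and lists were chosen with earlier results of these data known. Enterocyte markers, not shown, had medians of 1.64 and 1.22. Activation and re-esterification holds called points on both sides of 0 in these 2 experiments. In the crypts the 1 point called lower in that row is Acat2, a thiolase of cholesterol synthesis and not a re-esterifying enzyme.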

How the data were processed

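For each experiment the authors deposited 1 table of unnormalized read counts by gene. The submitters' processing notes name HISAT2 2.0.5 and featureCounts 1.5.0-p3. The genome build, annotation and strand setting are not given in the sources used here, and gene positions of the 10 members equal GENCODE M21 on GRCm38 in the KO IEC table, and 9 of 10 in the others (Dgat1 differs). The members and gene lists were chosen with earlier results of these data known.

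Each experiment was fitted alone, KO against WT, with no block. edgeR 4.0.16 (R 4.3.3) was used for the low-count filter (filterByExpr), for scaling by trimmed mean of M-values (TMM) and for the quasi-likelihood F test. P-values were adjusted by Benjamini-Hochberg across every gene that passed the filter, and "called" means an adjusted p under 0.05. CPM values are TMM-scaled, except those of mitochondrial ribosomal RNA and the floor, which are relative to total counts. The SE is that of the log2 fold change. Exact permutation tests were two-sided. Total counts were 7348191 to 16881395 per library.

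The genes named are the 10 members, the fat absorption genes called in the crypts and the 3 largest called changes per role in KO CAG organoids, the tested neighbours of the apolipoprotein cluster, Cul4b, mt-Rnr1, mt-Rnr2 and the 10 markers Alpi, Sis, Lct, Krt20, Lgr5, Olfm4, Lyz1, Fabp6, Slc10a2 and Gata4; others are said to be named after their values were seen. WT and KO share replicate numbers, but no label says that a number marks a shared animal or batch, and deviations of same-numbered crypt libraries correlated at -0.395 to 0.434, so the numbers were not taken to pair the samples. Alternatives were other scalings, other filters, DESeq2 1.42.0, a 2-fold requirement, a replicate block, all 16 libraries in 1 fit, each library left out, and the mitochondrial ribosomal RNA class. The fits were tested on simulated data.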

Additional observations from a re-analysis of the deposited data

Results flagged for a closer look

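Of 96 groups of 4 crypt libraries examined (48 genes in 2 genotypes), 4 held a library far from the other 3, and chance alone marks about 1 group in 20. AC116503.1, the antisense gene at the start of Apoa4, was at 29.3 CPM in KO IEC replicate 3 and at 2.32 to 5.50 CPM in the other 3. Gpat3 was at 58.3 CPM in KO IEC replicate 1 against 75.9 to 78.2 CPM. Acat2 was at 46.5 CPM in KO IEC replicate 2 against 49.1 to 49.5 CPM, a gap smaller than that to WT. Sik3 was at 36.1 CPM in WT replicate 3 against 41.9 to 42.8 CPM. None of the 10 members was marked.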

How the results depend on the processing

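In the crypts 3 members and 12 other fat absorption genes were called, with 6.96% of all genes. The counts of members and of the others were 6 and 23 with no low-count filter (4.91% of all genes called) and 5 and 30 by DESeq2's Wald test (18.3%). Both counts were 0 with the replicate block (0.0298%) and with the mitochondrial rRNA class as a covariate (0.0149%). Both counts were also 0 without WT replicates 2 and 3 (0.00715%), a choice made after seeing the data. With a 2-fold requirement the counts were 3 and 4, where 1.44% of all genes were called higher and 0.343% lower. They were 2 and 7 with DESeq2 size factors (5.88%) and 2 and 6 with library size scaling (4.71%), both losing Mttp. With all 16 libraries in 1 fit they were 4 and 20 (10.7%), which added Apoa4. Leaving out each library in turn gave 0 to 8 members and 0 to 27 others, with 0.0145% to 18.0% of all genes. With the replicate block Apob, Mttp and Dgat2 had adjusted p of 0.0891 to 0.0912 (edgeR). Replicate numbers do not come from a stated pairing. Same-numbered libraries correlated in their deviations at -0.395 to 0.434 in crypts, 0.342 in KO IEC and 0.0669 in KO CAG organoids, and not every crypt library correlated best with its own number.

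In the KO IEC organoids 0 members and 0 others were called (0.00717% of all genes). The others numbered 3 with no low-count filter (0.917% of all genes), 1 by DESeq2's Wald test (0.187%) and 1 in the fit of 16 (0.115%). Leaving out each library gave 0 to 4 members and 0 to 17 others, an arm of 1 library being assumed to vary like the other arm. With the replicate block Apoa4 turned to -0.041 (log2). Over the libraries left out, the log2 fold change ran from -0.56 to 0.86 for Apoa1, -1.17 to 0.96 for Apoa4, -2.40 to 1.096 for Apoc3, -0.16 to 0.84 for Dgat1, -0.22 to 0.64 for Dgat2, -1.32 to 0.63 for Fabp1 and -0.23 to 0.54 for Fabp2.

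In the KO CAG organoids 9 members and 35 others were called (31.5% of all genes), and 1 and 3 in the fit of 16 (3.06%). With a 2-fold requirement 12 others were called, where 6.36% of all genes were called higher and 2.24% lower. With each library left out in turn, an arm of 1 library remained, and the members' log2 fold changes ran from 0.51 (Fabp1) to 2.60 (Apoa1). The tests of a difference between experiments gave 0 members called in every alternative run. The cause of these changes was not tested, beyond fewer libraries in some fits. Members in the crypts and the KO CAG organoids kept their direction in every alternative run. Apoc2, at no more than 11 counts in any library, is limited by depth.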
